A study of Mus musculus with 3 samples.

Results

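The genes described here are 9 members of the cell's response to foreign RNA and to interferon: the sensors Ifih1 and Dhx58, the adaptor Mavs, the interferon receptor chain Ifnar1, the transcription factor Stat2, and Isg15, Ifit1, Ifit3 and Rsad2, which interferon induces. They were chosen by name, and chromatin accessibility was read from every feature that overlapped the gene body or the 2 kb on either side. Of 315694 features of 500 bp, 45 lay in these windows, and they covered 8 of the 9 genes. Ifit3 had 0 features, so no value is given for it; 18019 of the 21887 protein-coding genes annotated had one.

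Open chromatin was measured nucleus by nucleus with ATAC-seq, which uses a transposase to tag accessible DNA, in nuclei sorted from mouse dorsal skin by green fluorescence. All mice carried Dct-rtTA and Tre-H2B-GFP, so that doxycycline (20 mg in 100 ml of drinking water for 5 days) labelled the histones of cells that use the promoter of Dct, a pigment-cell gene. Telogen skin, in the resting phase of the hair cycle, came from 12 mice. Anagen skin, in the growth phase, came from 8 mice whose hair had been shaved and removed with Nair, a depilatory cream. UVB skin came from 24 mice irradiated 3 times in 1 week at 2.2 mJ/cm2. The age is given as 7 weeks in the treatment text and as 8 weeks in the sample characteristics. Telogen and anagen nuclei share 1 library, and the UVB pool was deposited apart from it as 2 technical replicates. An effect of UVB and one of the library therefore cannot be told apart. The anagen mice differ from the others by depilation as well as by hair cycle phase.

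Ifih1 encodes MDA5, a helicase that binds long double-stranded RNA in the cytoplasm, and Dhx58 encodes LGP2, a related helicase that lacks the signalling domain and modulates the other sensors. MDA5 signals through MAVS on mitochondria to switch on type I interferon genes. Interferon binds a receptor made of IFNAR1 and IFNAR2, and STAT2 and IRF9 then take part in a complex that binds the interferon-stimulated response element (ISRE) near the starts of genes such as Isg15, Ifit1, Ifit3 and Rsad2.

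The promoters of 6 of the 8 members with an entry in the RefSeq promoter table (GRCm38.p6) held the ISRE letters, GAAA then any 2 bases then GAAA, on either strand within the 250 bases before and the 50 bases after the gene start. Of all 32851 promoters in that table, 3.44% held them. Mavs and Ifnar1 held none, and no member promoter held the GAS letters, TTCC then any base then GGAA, present in 1.15% of promoters. The 250 bases before the start are printed for the 5 genes with a match there and for Ifih1, whose match lies after the start, to show where the letters lie. Ifit3 is included for its letters alone, since no feature covers it. Sequences run 5′ to 3′ on the strand of the gene, and capitals mark the letters of the match, which reads TTTC in place of GAAA where it is on the other strand.
Stat2, chr10:128270248-128270497, plus strand: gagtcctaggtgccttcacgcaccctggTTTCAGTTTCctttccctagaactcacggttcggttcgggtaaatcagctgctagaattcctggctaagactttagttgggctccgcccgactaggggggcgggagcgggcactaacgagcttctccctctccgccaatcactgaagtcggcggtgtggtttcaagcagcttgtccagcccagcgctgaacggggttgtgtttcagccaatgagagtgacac
Isg15, chr4:156200819-156201068, minus strand: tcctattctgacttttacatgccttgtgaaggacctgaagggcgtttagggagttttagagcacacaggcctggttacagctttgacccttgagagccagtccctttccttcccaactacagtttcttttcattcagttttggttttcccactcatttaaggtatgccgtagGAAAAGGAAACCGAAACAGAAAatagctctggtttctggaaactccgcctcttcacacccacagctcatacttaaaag
Ifit1, chr19:34640639-34640888, plus strand: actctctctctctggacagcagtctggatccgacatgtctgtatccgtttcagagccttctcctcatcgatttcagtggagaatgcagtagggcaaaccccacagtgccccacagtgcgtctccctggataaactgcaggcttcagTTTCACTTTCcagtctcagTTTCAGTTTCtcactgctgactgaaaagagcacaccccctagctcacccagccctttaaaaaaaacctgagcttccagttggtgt
Ifit3, chr19:34583279-34583528, plus strand: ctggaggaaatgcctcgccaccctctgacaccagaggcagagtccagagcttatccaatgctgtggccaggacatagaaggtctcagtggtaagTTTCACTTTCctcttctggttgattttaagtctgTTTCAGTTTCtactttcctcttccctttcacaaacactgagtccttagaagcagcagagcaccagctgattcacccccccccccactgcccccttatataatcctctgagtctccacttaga
Rsad2, chr12:26456453-26456702, minus strand: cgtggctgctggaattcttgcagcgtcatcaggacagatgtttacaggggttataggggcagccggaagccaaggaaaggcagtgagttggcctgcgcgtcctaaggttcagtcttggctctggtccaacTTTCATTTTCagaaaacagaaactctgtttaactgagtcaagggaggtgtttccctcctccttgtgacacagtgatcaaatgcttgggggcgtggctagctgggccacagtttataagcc
Ifih1, chr2:62646256-62646505, minus strand: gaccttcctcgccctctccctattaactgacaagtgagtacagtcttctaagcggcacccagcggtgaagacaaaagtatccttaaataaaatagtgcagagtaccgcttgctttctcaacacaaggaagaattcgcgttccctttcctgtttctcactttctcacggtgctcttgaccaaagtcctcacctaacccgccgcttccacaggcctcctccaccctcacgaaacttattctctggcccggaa
Ifih1, bases 21 to 50 after the start, chr2:62646206-62646235, minus strand: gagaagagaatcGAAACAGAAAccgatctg

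Isg15 held 3 overlapping matches in a row, at bases -78, -72 and -66 from the start. Ifit1 held 2, at -104 and -85, and Ifit3 held 2, at -156 and -122. Rsad2 and Stat2 held 1 each, at -120 and -222. The match of Ifih1 was at base 33 after the start. Of these 10 matches, 8 lay inside a feature of the gene and the other 2 were those of Ifit3. A match is a description of letters and not a measured binding site.

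With each barcode counted once there were 2042 nuclei of telogen, 3753 of anagen and 6553 of UVB. Their counts in features came to 5225945, 10397896 and 16182770. Median counts per nucleus were 1650, 1577 and 1726. Levels are counts per 1000000 counts in features (CPM). Each condition is 1 sample, so there is no test between conditions. Ratios carry 95% intervals that cover counting error only. A ratio counts as higher at 1.5-fold or more, and as lower at the inverse, where both conditions together gave at least 30 counts. Barcodes seen in more than 1 condition numbered 506.

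The sort held other cells besides the pigment lineage. Nuclei were clustered without the features of the members and of the pathway list, and clusters 1 and 7 were called melanocyte-like from their markers. They held 148 telogen nuclei (7.25%), 998 anagen nuclei (26.6%) and 2188 UVB nuclei (33.4%). Of 13 melanocyte markers, 11, 13 and 11 were at least 2-fold higher in these nuclei than in the rest of telogen, anagen and UVB. In cluster 1 the number was 8 of 13 and in cluster 7 it was 12 of 13. The 2 clusters did not hold the same conditions: cluster 7 held 790 of the 998 anagen melanocyte-like nuclei but 3 telogen and 42 UVB nuclei. Of 10 Schwann markers, from a related lineage, 5, 5 and 4 were at least 2-fold higher in the class, and 1 keratinocyte marker was in each condition. UVB over anagen levels or ratios of whole member windows are therefore given for both clusters and for cluster 1 alone. Values of single features in this class are for both clusters together.

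Over all nuclei, which mix cell classes whose shares differ between conditions, the members' accessibility was close to level. Their summed level was 310.0 CPM in telogen, 289.4 in anagen and 304.8 in UVB. The ratio was 0.934 for anagen over telogen (95% interval 0.854 to 1.02), 0.983 for UVB over telogen (0.905 to 1.07) and 1.05 for UVB over anagen (0.985 to 1.13). In anagen over telogen 0 of 8 members were higher or lower, where 12.9% of genes were higher and 16.3% lower. In UVB over telogen it was also 0 of 8, where 9.07% of genes were higher and 16.0% lower, but Dhx58 went from 0.799 to 0.398 without UVB tag number 19, a group of barcode names that holds 2934 of the 6553 UVB nuclei. In UVB over anagen 1 of 8 was higher and 1 lower, where 10.2% of genes were higher and 13.1% lower.

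**Figure D1:**
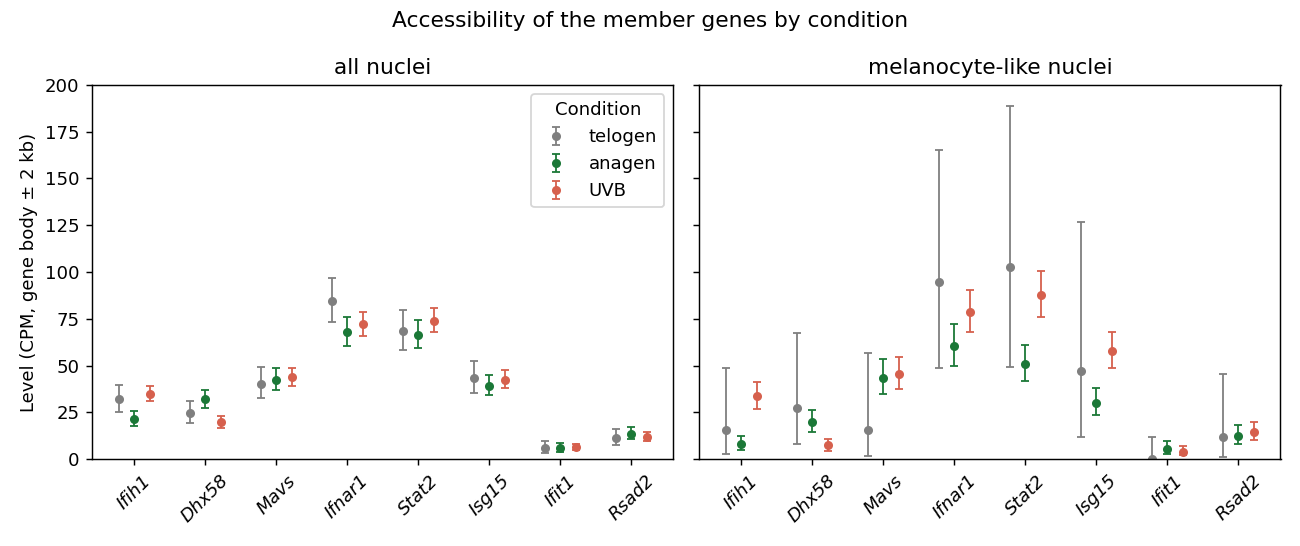
Level of each member in CPM (linear axis) over all nuclei (left) and melanocyte-like nuclei (right) in telogen (grey), anagen (green) and UVB (red); points are the level and bars its 95% counting interval. Ifih1 is lowest in anagen in both panels, and the telogen intervals at right are wide because 80 counts stand behind all 8 genes.

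Ifih1, the MDA5 gene, lies at chr2:62595618-62646255 on the minus strand and had 9 features. Over all nuclei its level was 32.0 CPM in telogen, 21.6 in anagen and 34.9 in UVB, so that anagen was the low condition. It was 1.61-fold higher in UVB than in anagen (95% interval 1.30 to 2.01). With nuclei deeper than 3 times their condition's median left out, the ratio was 1.19 (0.923 to 1.55). In melanocyte-like nuclei the levels were 15.8 CPM in telogen, on 4 counts, 8.30 CPM in anagen and 33.6 CPM in UVB. UVB over anagen was 4.04 in this class (2.49 to 6.83), and 1.85 (1.04 to 3.52) without the nuclei of high count. In cluster 1 alone it was 0.894 (0.442 to 2.07), so the higher level in UVB was not seen there. In cluster 7, which held 42 UVB nuclei, it was 3.27 (0.358 to 14.5), on 4 UVB and 23 anagen counts.

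The feature over the start of Ifih1, chr2:62646024-62646524, held 122 of the 179 UVB counts and 25 of the 39 anagen counts of the gene in melanocyte-like nuclei. Its level was 15.8 CPM in telogen, again on 4 counts, 5.32 CPM in anagen and 22.9 CPM in UVB. The UVB over anagen ratio of this feature was 4.30 (2.36 to 8.38) over both clusters together. The next feature, 562 bases into the gene, was at 1.06 CPM in anagen and 4.87 CPM in UVB. A feature 2738 bases into the gene was at 1.06 and 3.37 CPM. The other 6 features, all at least 24594 bases into the gene, held 4 anagen and 13 UVB counts together. Most counts of Ifih1 in both conditions thus lay in the 3 features nearest its start, of which the first holds the ISRE letters.

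Dhx58, the LGP2 gene, lies at chr11:100694884-100704271 and had 6 features, 4 of which also lie in the window of the neighbouring gene Kat2a. Its level over all nuclei was 24.7 CPM in telogen, 31.9 in anagen and 19.7 in UVB, the opposite order to Ifih1. UVB over anagen was 0.617 (0.493 to 0.773). Of the 319 UVB counts, 242 came from tag number 19, and without it the ratio was 0.308 (0.216 to 0.431). In melanocyte-like nuclei the level was 27.6 CPM in telogen, on 7 counts, 19.8 CPM in anagen and 7.31 CPM in UVB. The UVB over anagen ratio was 0.369 (0.215 to 0.617). Unlike that of Ifih1 it was as far from 1 in cluster 1 alone, at 0.266 (0.108 to 0.760), on 39 UVB and 12 anagen counts.

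The lower UVB level of Dhx58 was spread over its features. The largest, chr11:100702403-100702903, was at 8.73 CPM in anagen melanocyte-like nuclei and 3.94 CPM in UVB, a ratio of 0.451 (0.2003 to 0.972). The feature across the edge of the gene body with the higher coordinate, chr11:100704111-100704611, held 21 anagen and 4 UVB counts. The promoter table has no entry for Dhx58, so its start and strand were not used, and which edge is the start is not given here. The point value of each of the 6 features was lower in UVB than in anagen, with intervals that include 1 for 4 of them. The 2 features that Dhx58 does not share with Kat2a held 16 anagen and 8 UVB counts, a ratio of 0.440 (0.124 to 1.36), so that with these counts alone a lower level was not detectable.

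Mavs, the adaptor of both helicases' pathway, lies at chr2:131234063-131248025 on the plus strand. Its level over all nuclei was 40.4 CPM in telogen, 42.5 in anagen and 43.7 in UVB, the narrowest range of the sensors and adaptor. In melanocyte-like nuclei it was 15.8 CPM in telogen, on 4 counts, 43.4 CPM in anagen and 45.5 CPM in UVB. The UVB over anagen ratio was 1.05 (0.789 to 1.40), and 0.729 (0.398 to 1.47) in cluster 1 alone. The feature over its start, chr2:131233701-131234201, held 190 of the 204 anagen counts and 223 of the 243 UVB counts, so nearly the whole reading of Mavs is that of its promoter.

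Ifnar1, the receptor chain, lies at chr16:91485032-91510523 on the plus strand. Over all nuclei it was at 84.4 CPM in telogen, 68.0 in anagen and 72.1 in UVB, and telogen was the high condition. In melanocyte-like nuclei it was at 94.6 CPM in telogen, 60.2 in anagen and 78.5 in UVB. The UVB over anagen ratio was 1.30 (1.03 to 1.66), below the 1.5-fold line, 0.881 (0.498 to 1.71) in cluster 1 alone and 1.53 (0.642 to 3.12) in cluster 7 alone, on 20 UVB counts. Its start feature, chr16:91484808-91485308, was at 48.7 CPM in anagen and 67.3 CPM in UVB.

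Stat2, the transcription factor of the interferon receptor, lies at chr10:128270498-128292853 on the plus strand. Its level over all nuclei was 68.3 CPM in telogen, 66.4 in anagen and 74.1 in UVB. In melanocyte-like nuclei it was 102.5 CPM in telogen, on 26 counts, 50.9 CPM in anagen and 87.7 CPM in UVB, so anagen was again the low condition. UVB over anagen was 1.72 (1.37 to 2.19). It was 0.897 (0.568 to 1.49) in cluster 1 alone and 0.668 (0.169 to 1.81) in cluster 7 alone, on 7 UVB counts. The start feature, chr10:128270145-128270645, holds the ISRE letters and carried 425 of the 468 UVB counts. Over the whole class it stood at 38.9 CPM in anagen and 79.7 CPM in UVB, a ratio of 2.05 (1.57 to 2.69). This feature also lies in the window of Apof, and the 3 features that Stat2 shares with no other gene held 10 anagen and 4 UVB counts.

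**Figure D2:**
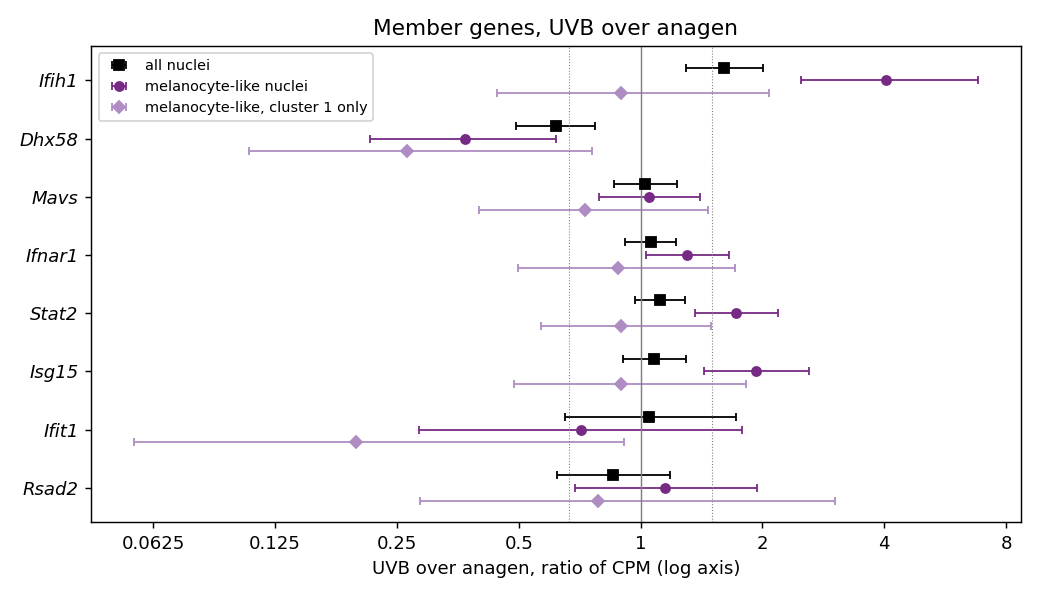
UVB over anagen ratio of CPM (log axis) of each member over all nuclei (squares), melanocyte-like nuclei (circles) and cluster 1 alone (diamonds), with 95% counting intervals; dotted lines mark 1.5-fold either way. Ifih1, Stat2 and Isg15 lie right of the upper line in melanocyte-like nuclei and near 1 in cluster 1, while Dhx58 lies left of the lower line in each.

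Isg15 encodes a ubiquitin-like protein that is attached to other proteins after interferon. It lies at chr4:156199424-156200818 on the minus strand. Its level over all nuclei was 43.2 CPM in telogen, 39.3 in anagen and 42.5 in UVB. In melanocyte-like nuclei it was 47.3 CPM in telogen, on 12 counts, 30.0 CPM in anagen and 57.7 CPM in UVB. UVB over anagen was 1.92 (1.43 to 2.61). It was 0.896 (0.488 to 1.82) in cluster 1 alone and 1.98 (0.573 to 5.09) in cluster 7 alone, on 12 UVB counts. Most of these counts are not at its start: 2 features, 2750 and 3328 bases downstream of it and also in the window of Agrn, held 260 of the 308 UVB counts. The start feature, chr4:156200650-156201150, spans the 3 ISRE matches and was at 3.41 CPM in anagen and 8.997 CPM in UVB, with 0 counts in telogen. The floor of 3 counts used for a count of 0 stands at 11.8 CPM there and is not an upper limit. Over the whole class the start feature had a UVB over anagen ratio of 2.64 (1.22 to 6.11), on 48 and 16 counts.

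Ifit1 encodes a protein that binds foreign RNA ends. It lies at chr19:34640889-34650009 on the plus strand and had 2 features, both also in the windows of Ifit1bl1 and Ifit1bl2. Over all nuclei it was at 5.74 CPM in telogen, 5.96 in anagen and 6.24 in UVB. In melanocyte-like nuclei it was listed at 0 in telogen, at 5.53 CPM in anagen and at 3.94 CPM in UVB. The floor used for a count of 0 stands at 11.8 CPM in telogen and is not an upper limit. The UVB over anagen ratio of Ifit1 was 0.711 (0.284 to 1.79), so no difference was detectable at this depth. In cluster 1 alone it was 0.198 (0.0559 to 0.910), on 17 UVB and 7 anagen counts, too few to be counted as lower or higher.

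Rsad2 encodes viperin, an antiviral enzyme. It lies at chr12:26442743-26456452 on the minus strand. Its level over all nuclei was 11.3 CPM in telogen, 13.7 in anagen and 11.7 in UVB. In melanocyte-like nuclei the level was 11.8 CPM in telogen, on 3 counts, 12.6 CPM in anagen and 14.4 CPM in UVB. The UVB over anagen ratio was 1.15 (0.690 to 1.94). In cluster 1 alone Rsad2 was at 19.2 CPM in anagen, on 8 counts, and at 15.1 CPM in UVB, on 77 counts. The start feature, chr12:26456123-26456623, was at 7.87 and 9.18 CPM.

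Features have the same length, so start features can be set against each other between genes. In UVB melanocyte-like nuclei Stat2 was at 79.7 CPM, Ifnar1 at 67.3, Mavs at 41.8 and Ifih1 at 22.9 CPM. Below them stood Rsad2 at 9.18 CPM, Isg15 at 8.997 CPM and Ifit1 at 3.94 CPM. In anagen Ifnar1 led at 48.7 CPM, before Mavs at 40.4 and Stat2 at 38.9 CPM, and Rsad2 was at 7.87, Ifit1 at 5.53, Ifih1 at 5.32 and Isg15 at 3.41 CPM. The receptor, the adaptor and the transcription factor thus had the most open starts of the 7 genes in both conditions. The 3 induced genes stayed below 10 CPM, although they hold the ISRE letters, and Ifih1 stood with them in anagen but above them in UVB. These values are for clusters 1 and 7 together, and 790 of the 998 anagen nuclei were in cluster 7. In cluster 1 alone the whole Ifih1 window was at 38.3 CPM in anagen and 34.3 CPM in UVB. The part of the cluster mix in this order was not tested.

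**Figure D3:**
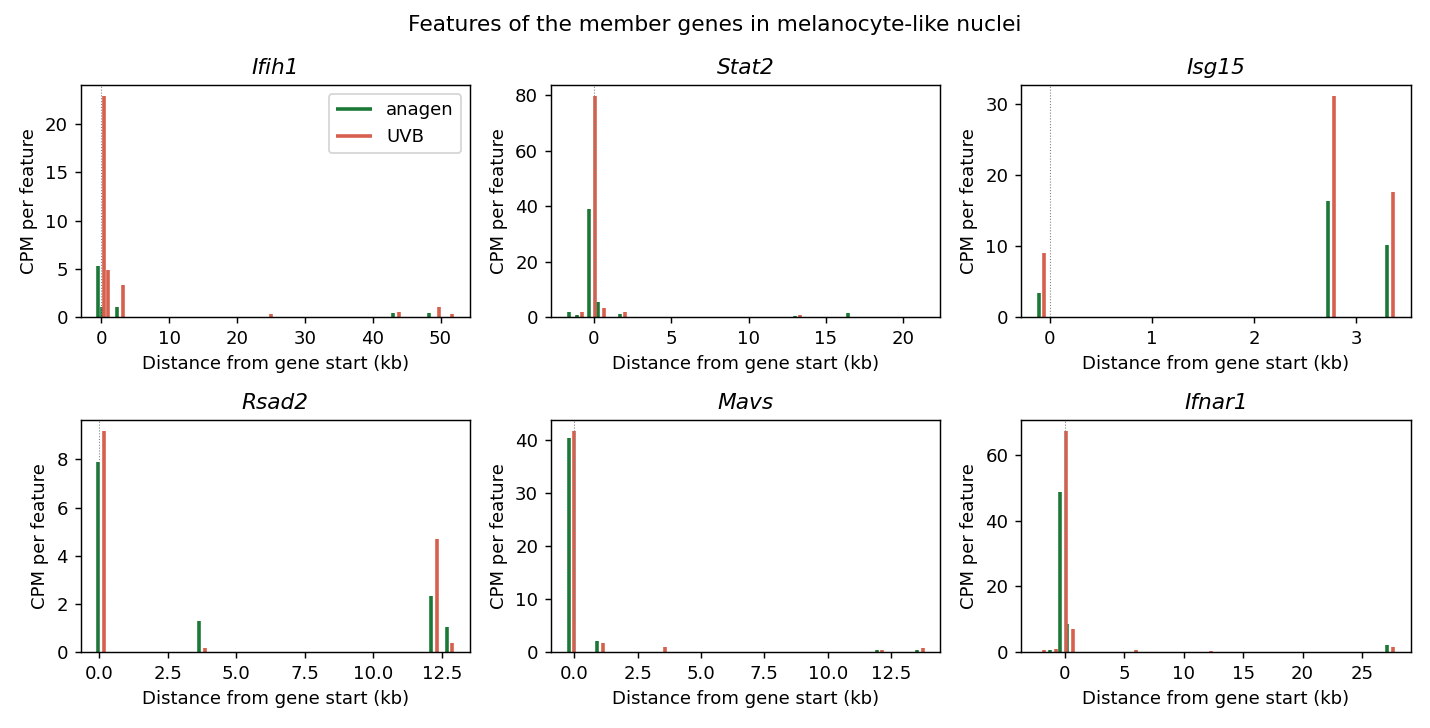
CPM of each feature in melanocyte-like nuclei of anagen (green) and UVB (red) against the distance of its centre from the gene start in kb, for 6 members; bars of a feature are drawn side by side and the dotted line marks the start. Start features are the tallest in each gene except Isg15, whose 2 features downstream are shared with Agrn.

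In melanocyte-like nuclei as a whole, UVB over anagen placed 3 of 8 members higher (Ifih1, Isg15 and Stat2) and 1 lower (Dhx58), where 16.6% of 14739 genes were higher and 23.0% lower. The members' summed ratio was 1.43 (1.27 to 1.597), and their median log2 ratio was 0.29 against -0.02 over all genes. In cluster 1 alone 0 of 7 were higher and 1 was lower, where 16.2% of genes were higher and 15.6% lower, and the summed ratio was 0.792. The share of counts in gene start features also differed. It was 25.4% in anagen and 34.4% in UVB melanocyte-like nuclei, but 34.3% and 34.7% in cluster 1. Its part in the result was not tested. On a scale set by the ends of housekeeping genes the summed ratio was 1.11 and Stat2 was at 1.34, while Ifih1 was at 3.15 and Isg15 at 1.50. Among start features of all genes 30.6% were higher and 13.2% lower in UVB than in anagen. The 304 start features with an ISRE match stood at 30.9% higher, with a median log2 ratio of 0.25 against 0.30 for start features in general.

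Within anagen, a comparison inside 1 library, cluster 7 was past the 1.5-fold line below cluster 1 for 6 of 7 members with enough counts, and Mavs lay just inside it at 0.667, where 22.4% of genes were lower and 24.5% higher. Ifih1 was at 5.37 CPM in cluster 7 and 38.3 CPM in cluster 1, a ratio of 0.140 (0.0546 to 0.380) on 23 and 16 counts. Stat2 was at 46.0 and 100.6 CPM, a ratio of 0.457 (0.281 to 0.777). Isg15 was at 26.6 and 64.7 CPM, a ratio of 0.412 (0.215 to 0.863). The ratios of Dhx58, Mavs, Rsad2 and Ifnar1 lay between 0.621 and 0.667 with intervals that include 1. Cluster 7 nuclei were also deeper, with a median of 3333.5 counts against 1568.5, and had 24.5% of counts in start features against 34.3%. The part of these in the result was not tested.

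Against telogen the class held few nuclei, and only 80 counts lay in the 8 genes. In anagen over telogen 1 of 7 members was higher (Mavs, 2.75) and 4 were lower (Stat2, 0.496, Ifih1, 0.526, Isg15, 0.634, and Ifnar1, 0.637), where 26.3% of genes were higher and 23.8% lower. The interval of each includes 1. Within cluster 1, 1 of 4 members with enough counts was higher and 0 were lower, where 16.9% of genes were higher and 14.6% lower. The summed ratio there was 1.43 (0.931 to 2.23), against 0.732 for the class. Stat2 was at 1.12 (0.494 to 2.75) and Isg15 at 1.32 (0.378 to 6.19). Ifih1 was at 2.35 (0.548 to 15.4), on 16 anagen and 4 telogen counts, too few to be counted as higher or lower. In UVB over telogen 2 of 7 were higher (Mavs, 2.89, interval 0.782 to 24.1, and Ifih1, 2.13, interval 0.665 to 12.0) and 1 was lower, where 18.9% of genes were higher and 16.1% lower. With cluster 5 counted in, Ifih1 was at 0.760 and 0 members were higher. That one was Dhx58, at 0.265 (0.0942 to 0.970), on 39 UVB and 7 telogen counts.

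Barcode names carry a tag number whose meaning the labels do not give, and the members were read by tag number as a view of the spread inside a condition. Over tag numbers with at least 50 melanocyte-like nuclei, Ifih1 was between 0 and 17.1 CPM in anagen (5 tag numbers, median 10.1) and between 8.93 and 56.0 CPM in UVB (11 tag numbers, median 34.5). The ranges overlap, with 2 of the 11 UVB values, 8.93 and 17.0 CPM, inside the anagen range. Dhx58 was between 7.33 and 37.2 CPM in anagen (median 20.2) and between 0 and 18.8 CPM in UVB (median 7.44). The 4 UVB tag numbers at 0 had between 137255 and 312601 counts in features, and 0 is not an upper limit. Stat2 was between 40.6 and 80.7 CPM in anagen and between 44.8 and 204.4 CPM in UVB, with a wide overlap. These values are for clusters 1 and 7 together, and cluster 7 held 790 of the 998 anagen nuclei but 42 UVB nuclei. In cluster 1 alone, over all tag numbers, Ifih1 was at 38.3 CPM in anagen and 34.3 CPM in UVB. The part of the cluster mix in the spread by tag number was not tested.

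**Figure D4:**
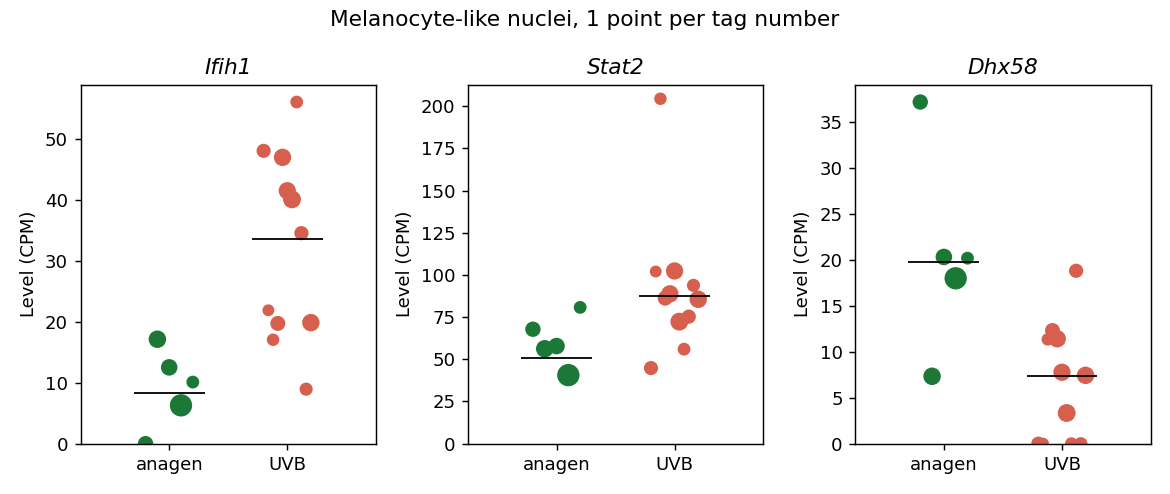
Level in CPM of Ifih1, Stat2 and Dhx58 in melanocyte-like nuclei of anagen (green) and UVB (red), 1 point per tag number with at least 50 nuclei; larger points hold more counts and the line is the level of the whole class. UVB points lie mostly above the anagen points for Ifih1 and mostly below them for Dhx58.

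The members were then read in the other cells of the sort, where means are over the 3 conditions. Dhx58 was at 55.2 CPM in myeloid-like nuclei (48.1 to 63.8 over the conditions) and 45.6 CPM in fibroblast-like nuclei (35.6 to 59.4), which overlap. It followed at 33.3 CPM in pericyte and smooth muscle-like, 26.0 CPM in endothelial-like and 18.2 CPM in melanocyte-like nuclei. Keratinocyte-like nuclei, at 10.04 CPM (9.32 to 10.7), lay below each of those but melanocyte-like nuclei, whose range of 7.31 to 27.6 CPM spans theirs. Schwann-like nuclei had 0 counts of Dhx58 in telogen and anagen, where the floor of 3 counts stands at 22.3 and 21.0 CPM. Both floors are above their 18.7 CPM in UVB, so their mean of 6.23 CPM does not rank them. Of the 6 Dhx58 features, 4 also lie in the window of Kat2a, so these levels may not be those of Dhx58 alone.

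Ifih1 did not separate the stromal and immune classes, which lay between 35.4 CPM (fibroblast-like) and 38.2 CPM (pericyte and smooth muscle-like). It was at 23.4 CPM in keratinocyte-like nuclei and 19.2 CPM in melanocyte-like nuclei, the lowest mean of the 7 classes. The melanocyte-like range of 8.30 to 33.6 CPM spans that of keratinocyte-like nuclei, 19.5 to 26.5 CPM, and cluster 1 alone was at 38.3 CPM in anagen and 34.3 CPM in UVB. Isg15 was highest in endothelial-like nuclei, at 65.3 CPM (58.4 to 69.0), and lowest in fibroblast-like nuclei, at 23.2 CPM (14.5 to 31.7), and these ranges do not overlap. Of the 3 Isg15 features, 2 also lie in the window of Agrn, so these levels may not be those of Isg15 alone. Stat2 went from 106.3 CPM in pericyte and smooth muscle-like nuclei to 49.1 CPM in keratinocyte-like nuclei. Ifnar1 went from 97.7 CPM to 59.8 CPM in the same classes, and Mavs from 52.6 CPM in endothelial-like to 34.9 CPM in melanocyte-like nuclei, the last pulled down by 15.8 CPM on 4 telogen counts, beside 43.4 and 45.5 CPM in anagen and UVB. Rsad2 was at 18.6 CPM in endothelial-like nuclei. Its mean of 2.29 CPM in Schwann-like nuclei rests on 7 counts, all in UVB. The floor there is 22.3 CPM in telogen and 21.0 CPM in anagen. The mean of Ifit1 was at most 10.6 CPM in these classes.

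**Figure D5:**
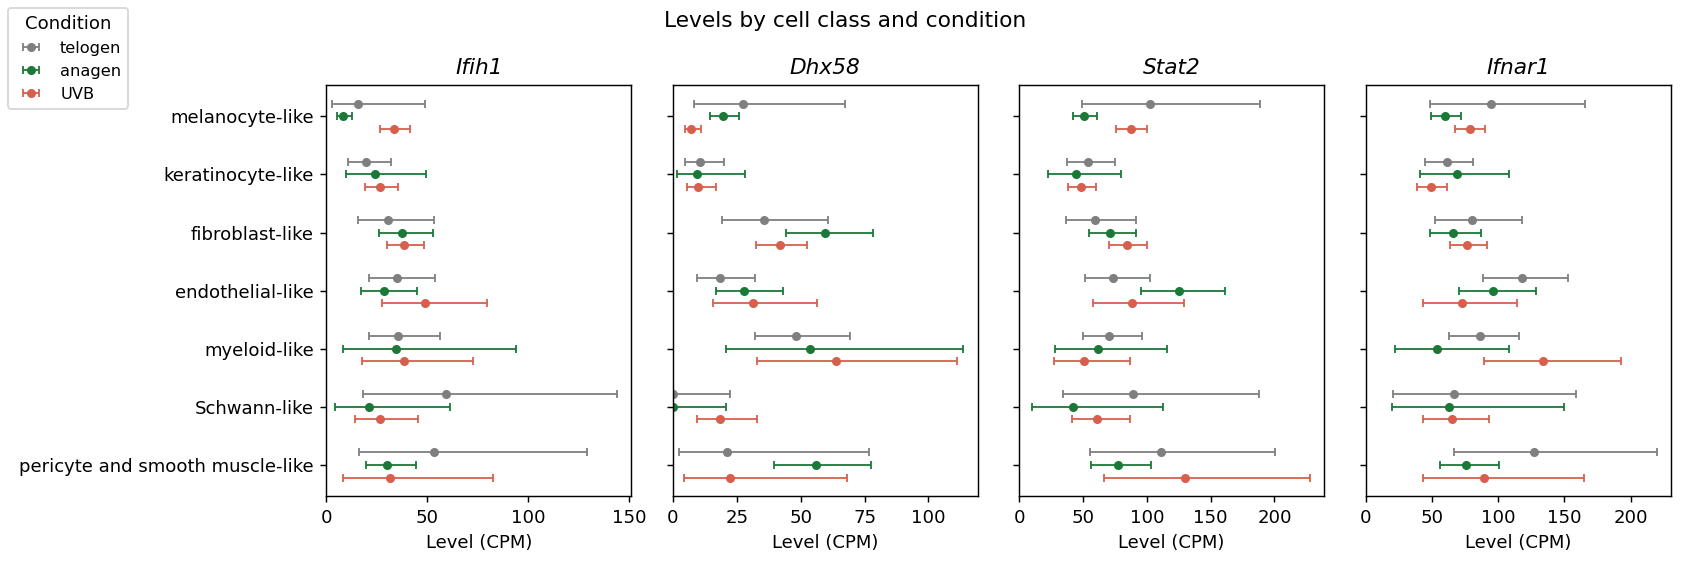
Level in CPM of Ifih1, Dhx58, Stat2 and Ifnar1 in 7 cell classes of telogen (grey), anagen (green) and UVB (red), with 95% counting intervals. Dhx58 is highest in myeloid-like and fibroblast-like nuclei, and Ifih1 has its lowest point in anagen melanocyte-like nuclei.

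In the other named classes, member ratios past 1.5-fold had intervals that include 1, except for 2. Stat2 in endothelial-like nuclei was at 1.70 in anagen over telogen (1.11 to 2.66), where 8.44% of genes were higher. Ifnar1 in myeloid-like nuclei was at 2.49 in UVB over anagen (1.09 to 6.49), on 63 and 14 counts, where 20.5% of genes were higher. In the unnamed cluster 5, Mavs was at 7.89 in UVB over anagen (1.32 to 320.6), on 63 counts and 1 count, and Ifnar1 at 6.87 in UVB over telogen (1.17 to 277.5), on 94 counts and 1 count. For Dhx58 in fibroblast-like nuclei the levels were 35.6, 59.4 and 41.8 CPM in telogen, anagen and UVB.

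The rest of the pathway was read from a list of 61 other genes, of which 60 were matched and 58 had a feature. In melanocyte-like nuclei, UVB over anagen placed 22 of 51 genes higher and 8 lower, with a median log2 ratio of 0.51, where 16.6% of all genes were higher and 23.0% lower. By role it was 3 higher and 4 lower of 14 sensors and adaptors, 4 higher and 1 lower of 12 interferons and receptor-arm genes, and 15 higher and 3 lower of 25 induced genes. Those highest were Rtp4, an interferon-induced chaperone, at 5.01 (2.87 to 9.37), Gbp2, a guanylate-binding protein gene, at 3.13 (2.19 to 4.56), and Socs3, an inhibitor of cytokine signalling, at 3.01 (2.46 to 3.72). Those lowest were Traf3, which relays signals from MAVS, at 0.266 (0.214 to 0.328), Lgals3bp at 0.435 (0.286 to 0.651) and Ifi35 at 0.513 (0.362 to 0.722). In cluster 1 alone 11 of 48 list genes were higher and 9 lower, where 16.2% of all genes were higher and 15.6% lower. By role it was 3 higher and 4 lower of 13 sensors and adaptors, and 2 higher and 5 lower of 23 induced genes. Interferons and receptor-arm genes had 6 of 12 higher and 0 lower there. Over all nuclei 4 of 55 list genes were higher in UVB than in anagen and 13 lower, where 10.2% of all genes were higher and 13.1% lower. Against telogen, 2 of 55 were higher and 17 lower in anagen, where 12.9% of all genes were higher and 16.3% lower. In UVB 2 of 55 were higher than in telogen and 16 lower, where 9.07% of all genes were higher and 16.0% lower.

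In anagen over telogen the melanocyte-like nuclei had 10 of 43 list genes higher and 15 lower, the latter with 12 of the 22 induced genes, where 26.3% of all genes were higher and 23.8% lower. Within cluster 1, 1 of 20 list genes was higher and 4 lower, with 2 of the 8 induced genes among these, where 16.9% of all genes were higher and 14.6% lower. Over both clusters together Traf3 was at 3.56 (1.45 to 11.9), and Cmpk2, which neighbours Rsad2, at 2.38 on 1 telogen count (0.386 to 97.9). Lgals3bp had 0 counts in telogen and was 3.20-fold higher in anagen against a floor of 3 counts over the class, a value set by that floor. Rtp4 was at 0.142 (0.0472 to 0.541), Ifi47, an interferon-induced GTPase, at 0.222 (0.108 to 0.500) and Gbp2 at 0.229 (0.110 to 0.528). In UVB over telogen 9 of 48 were higher and 6 lower, where 18.9% of all genes were higher and 16.1% lower. Cmpk2 was at 5.99 on 1 telogen count (1.04 to 240.5), Gbp3 at 2.497 (0.785 to 14.1) and Ifitm2 at 2.47 on 1 telogen count (0.414 to 100.6). Xaf1 was at 0.423 (0.170 to 1.31), Ifi47 at 0.518 (0.271 to 1.11) and Ikbke, a kinase of interferon induction, at 0.552 (0.165 to 3.08). The 3 comparisons share nuclei with each other, so they are not independent.

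Over 21 groups of cell class by condition with at least 50 nuclei, the genes whose level followed the members' summed level most closely, of 12043 ranked, included Prr14 (Pearson r = 0.838), Sde2 (0.832), Peak1 (0.831) and Sestd1 (0.825). The summed level itself ranged from 223.8 CPM in telogen keratinocyte-like nuclei to 440.6 CPM in telogen pericyte and smooth muscle-like nuclei. The groups share libraries and differ in depth and in the share of counts at gene starts, so these values are a description.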

How the data were processed

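Single-nucleus ATAC-seq counts were analysed for telogen, anagen and UVB skin, 1 matrix per condition. The deposited values are whole-number counts per feature and nucleus, up to 4, and 61.1% of entries hold the value 2, so most counts come in pairs. The submitters' processing notes name mm10 (GRCm38), Bowtie2, SAMtools and MACS2 without versions. How reads became counts, and any shift of cut sites or filter on nuclei or doublets, is not given in the sources used here. Doublets were not called.

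The deposited barcode names carry a tag number before the # sign. Each barcode after # was counted once per condition, its deepest copy, which dropped 543 telogen, 1721 anagen and 62 UVB entries. The UVB matrix joins 2 technical replicates of 1 pool and no map of nuclei to them was used, so each condition is 1 sample and no p-value was computed.

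A gene's counts were summed over features that overlap the gene body and 2 kb either side (RefSeq, GRCm38.p6), divided by all counts in features. The gene start came from the promoter table, and the start feature is the one over or nearest it. Feature coordinates are as deposited. Ratio intervals are exact conditional binomial intervals (Clopper-Pearson) at 95% on effective counts, the squared sum of a gene's counts over the sum of their squares, and cover counting error only. A condition at 0 was set to 3 counts. Clustering used TF-IDF on 164775 features, 30 components kept after 1 more was left out, 15 neighbours and Leiden at resolution 0.6 with seed 1. A name needed at least 3 fixed markers at 2-fold. Cluster 5, with 5 of 13 melanocyte markers at 2-fold, stayed unnamed, and a pericyte gene was among its top 10. Scripts were tested on simulated data.

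All 9 members are named. Of the other pathway genes, up to 3 with the highest and 3 with the lowest ratio past 1.5-fold are named in each comparison of melanocyte-like nuclei, beside the 5 genes with the highest correlation, 1 of which is not reported here. The members, lists and tests were chosen with earlier results of these data known. Clustering ran in leidenalg 0.10.2, igraph 0.11.9 and scikit-learn 1.9.0, intervals in scipy 1.17.1, sums in pandas 2.3.3 and numpy 2.4.6, and plots in matplotlib 3.10.9, under Python 3.11.15.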

Additional observations from a re-analysis of the deposited data

How the results depend on the processing

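Alternatives covered barcode copies, gene windows, binarised counts, the scale, depth, tag numbers and clustering, and using cluster 1 alone or counting cluster 5 in was chosen after seeing the data. No paired analysis was possible because each condition is 1 sample. Over all nuclei the summed anagen over telogen ratio was 1.04 with nuclei thinned to 1000 counts and 1.02 without nuclei above 3 times the median, and UVB over anagen was 0.963 without those nuclei. In melanocyte-like nuclei the housekeeping scale moved all genes by 0.57 (log2) for anagen over telogen, by 0.21 for UVB over telogen and by -0.36 for UVB over anagen, giving summed ratios of 1.09 for the first and 1.11 for the last. In cluster 1 alone these were 1.43 and 0.792.

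For anagen over telogen, members lower numbered 2 with unshared features, thinned nuclei, deep nuclei left out, seed 3, resolution 1.0 or cluster 5 counted in, and 0 on the housekeeping scale or in cluster 1. Members higher numbered 2 on the housekeeping scale or thinned, and 0 with seed 3, resolution 1.0 or cluster 5. For UVB over telogen, members lower numbered 0 with features near gene ends, unshared features or thinned nuclei, and members higher 0 with seed 3, resolution 1.0 or cluster 5. For UVB over anagen, members lower numbered 0 with unshared features and 2 on the housekeeping scale, and members higher 0 in cluster 1.

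Directions of ratios past 1.5-fold turned as follows. Ifih1 in anagen over telogen was 1.17 without deep nuclei. In cluster 1 it was 2.35 (0.548 to 15.4), on 16 and 4 counts, fewer than the 30 needed for a call. In UVB over telogen Ifih1 was 0.766, 0.760 and 0.760 with seed 3, resolution 1.0 and cluster 5. Isg15 in anagen over telogen was 1.08 binarised, 1.65 thinned, 1.33 without deep nuclei and 1.32 in cluster 1, and Stat2 was 1.12 in cluster 1. In UVB over anagen, cluster 1 gave 0.894 for Ifih1, 0.897 for Stat2 and 0.896 for Isg15, and unshared features gave 0.352 for Stat2, on 4 and 10 counts. Of ratios inside 1.5-fold, Stat2 over all nuclei was 0.306 in UVB over anagen and 0.323 in UVB over telogen with unshared features. Dhx58 in anagen over telogen was 1.41 (0.303 to 9.26) in cluster 1 of the melanocyte-like nuclei, on 12 and 5 counts. This list is not complete. Over all nuclei Rsad2 in anagen over telogen reached 2.34. In melanocyte-like nuclei Rsad2 in UVB over anagen reached 3.68, and in UVB over telogen Isg15 reached 2.46 and Stat2 0.0634. Values from unshared features rest on fewer features, and the cause of the others was not tested. The telogen comparisons in this class are limited by 80 member counts.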
